A study of Homo sapiens with 20 samples.

Results

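Zinc finger (ZNF) genes of human chromosome 19 were examined at their promoters. They were the protein-coding genes of GENCODE version 44 on chromosome 19 of hg38 whose symbols begin with ZNF and a digit, which gave 249 genes of 20033 protein-coding genes with a start site in the annotation. The rule used names and position and no measured value, and 3 of the 249 symbols belong to read-through genes that join neighbours. Each gene was represented by the start of its canonical transcript, and its promoter was called in a library when a peak of acetylated histone H3 lysine 27 (H3K27ac) came within 1 kb of that start. H3K27ac marks active promoters and enhancers and was measured by chromatin immunoprecipitation and sequencing (ChIP-seq).

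The libraries came from HCT-116, a human colorectal carcinoma cell line, either wild type for FBXW7 (WT) or FBXW7-/- (KO). FBXW7 is the substrate receptor of a ubiquitin ligase that marks other proteins for degradation. All cells were transfected for 48 h with endoribonuclease-prepared small interfering RNA, either a control (esiCT) or one against the class IIa histone deacetylase HDAC4 (esiHDAC4), and were left untreated (UNT) or exposed to oxaliplatin (OXPT), a platinum compound used in colorectal cancer, at 50 µM over the final 24 h. The 8 combinations had 2 libraries each, replicates A and B, for 16 libraries in all. The study obtained the KO line as an edited line, and the sources used here do not say whether it is a single clone. The study's methods call the replicates biological. The labels mention 3 experiments combined and do not tie them to the letters, so the p-values below measure the spread between these libraries, which may be technical.

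KRT18, KRT8 and EPCAM, which mark epithelial cells, had a promoter peak in 16, 15 and 12 libraries, and CDX2, an intestinal transcription factor, in 10. CDX1 and VIL1, which also mark intestinal epithelium, had none, and neither had PTPRC, GFAP or MYOD1 of other cell types, while COL1A1 had 3. The promoters of FBXW7 and HDAC4 were called in 8 and 9 libraries, and a promoter peak checks neither the knockout nor the silencing. The lists held 1766 to 27958 peaks. A low percentile of the local background recovered from them, used as an index of read depth, ran from 1.02 to 3.07 reads. KO esiHDAC4 UNT replicate B stood apart with the shortest list and the lowest background index.

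ZNF genes with fingers of the C2H2 type form the largest family of human transcription factors, and many lie in tandem clusters on chromosome 19 that grew by gene duplication. Many of these proteins carry a KRAB domain, which binds TRIM28 and through it recruits the H3K9 methyltransferase SETDB1 and heterochromatin protein 1 to DNA. Their best known targets are retroelements, and each protein tends to read its own element family. The gene bodies of the clusters are known to carry H3K9 trimethylation of their own, in part through ZNF274, while their promoters can be active.

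RefSeq (GRCh38.p14) gave a promoter window of 300 bases, from 250 bases before to 50 after the start, for 218 of the 249 genes, and in 203 the RefSeq start lay within 100 bases of the GENCODE start. The sequences are written 5′ to 3′ along the gene, with every CG dinucleotide in capitals. ZNF562 and ZNF121 are shown as promoters called in the most libraries, and ZNF266 as a neighbour of theirs that was called in WT libraries.
ZNF562 (chr19:9675051-9675350, minus strand): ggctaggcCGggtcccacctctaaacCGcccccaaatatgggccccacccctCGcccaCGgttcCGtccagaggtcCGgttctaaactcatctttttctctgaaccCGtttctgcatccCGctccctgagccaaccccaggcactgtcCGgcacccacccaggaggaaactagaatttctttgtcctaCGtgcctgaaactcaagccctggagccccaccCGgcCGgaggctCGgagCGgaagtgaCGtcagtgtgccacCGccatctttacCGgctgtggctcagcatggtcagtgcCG
ZNF121 (chr19:9584455-9584754, minus strand): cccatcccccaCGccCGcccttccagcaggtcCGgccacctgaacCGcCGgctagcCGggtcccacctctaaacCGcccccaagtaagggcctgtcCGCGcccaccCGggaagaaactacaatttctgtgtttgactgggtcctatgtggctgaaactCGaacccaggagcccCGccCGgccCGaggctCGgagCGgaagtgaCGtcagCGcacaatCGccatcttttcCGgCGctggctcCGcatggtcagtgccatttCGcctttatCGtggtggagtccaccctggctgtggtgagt
ZNF266 (chr19:9435524-9435823, minus strand): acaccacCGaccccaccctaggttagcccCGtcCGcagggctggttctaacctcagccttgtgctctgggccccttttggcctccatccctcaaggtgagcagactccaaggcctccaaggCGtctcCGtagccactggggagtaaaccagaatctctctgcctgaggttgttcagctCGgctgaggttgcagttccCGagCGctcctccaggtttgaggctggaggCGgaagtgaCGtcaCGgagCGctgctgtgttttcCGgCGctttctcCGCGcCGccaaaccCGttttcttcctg

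All 3 hold the letters TGACGTCA, the core of the cyclic AMP response element (CRE), and lie in the same gene cluster. The next pair, ZNF556 and ZNF177, are the first promoters along the chromosome with a RefSeq window that were called in no library.
ZNF556 (chr19:2867085-2867384, plus strand): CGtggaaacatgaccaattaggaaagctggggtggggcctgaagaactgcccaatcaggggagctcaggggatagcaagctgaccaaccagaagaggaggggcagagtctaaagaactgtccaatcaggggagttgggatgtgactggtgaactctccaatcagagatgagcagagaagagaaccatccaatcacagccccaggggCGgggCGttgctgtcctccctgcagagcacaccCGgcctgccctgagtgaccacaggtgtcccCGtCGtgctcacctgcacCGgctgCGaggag
ZNF177 (chr19:9362763-9363062, plus strand): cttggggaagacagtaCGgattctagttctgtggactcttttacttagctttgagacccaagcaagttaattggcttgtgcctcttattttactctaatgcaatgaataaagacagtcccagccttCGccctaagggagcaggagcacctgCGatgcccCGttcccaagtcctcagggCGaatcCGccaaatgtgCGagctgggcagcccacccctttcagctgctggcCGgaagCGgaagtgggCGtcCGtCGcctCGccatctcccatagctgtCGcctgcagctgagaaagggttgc

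ZNF226 is shown because its peaks came from untreated libraries, and ZNF154 as a gene known to be methylated in carcinomas.
ZNF226 (chr19:44164850-44165149, plus strand): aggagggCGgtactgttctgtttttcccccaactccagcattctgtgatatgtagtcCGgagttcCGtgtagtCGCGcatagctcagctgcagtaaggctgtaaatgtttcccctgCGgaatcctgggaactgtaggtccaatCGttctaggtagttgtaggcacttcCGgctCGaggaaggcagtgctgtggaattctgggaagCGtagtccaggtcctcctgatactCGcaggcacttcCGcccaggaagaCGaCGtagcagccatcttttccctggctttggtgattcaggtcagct
ZNF154 (chr19:57709155-57709454, minus strand): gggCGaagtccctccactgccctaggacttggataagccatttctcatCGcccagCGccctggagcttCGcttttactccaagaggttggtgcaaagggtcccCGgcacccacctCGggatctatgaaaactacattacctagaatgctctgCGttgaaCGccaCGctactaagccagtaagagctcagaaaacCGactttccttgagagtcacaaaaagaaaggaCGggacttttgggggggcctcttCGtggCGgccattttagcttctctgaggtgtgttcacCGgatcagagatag

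ZNF91 and ZNF93, which are known to bind retroelements, lie in the same cluster and differed in call, with peaks in 9 and 0 libraries.
ZNF91 (chr19:23395422-23395721, minus strand): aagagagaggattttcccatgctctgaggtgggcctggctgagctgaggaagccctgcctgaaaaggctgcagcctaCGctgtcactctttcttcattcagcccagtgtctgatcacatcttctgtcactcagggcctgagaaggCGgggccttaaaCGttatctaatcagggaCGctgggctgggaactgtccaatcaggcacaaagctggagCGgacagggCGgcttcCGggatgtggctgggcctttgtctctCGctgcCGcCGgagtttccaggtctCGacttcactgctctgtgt
ZNF93 (chr19:19900696-19900995, plus strand): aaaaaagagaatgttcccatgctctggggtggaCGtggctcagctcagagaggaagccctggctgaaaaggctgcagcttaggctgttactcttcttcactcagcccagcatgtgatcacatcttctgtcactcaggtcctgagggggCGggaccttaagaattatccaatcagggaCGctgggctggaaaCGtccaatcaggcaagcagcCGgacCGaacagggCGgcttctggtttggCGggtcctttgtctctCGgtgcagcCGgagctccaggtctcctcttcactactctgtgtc

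Most ZNF promoters of chromosome 19 carried a called peak in few libraries or in none. Of the 249, 120 (48.2%) had no peak in any of the 16 libraries, against 40.0% of all promoters, 37.6% of the 1227 other promoters of chromosome 19 and 23.3% of the 266 ZNF promoters of other chromosomes. Peaks in 8 or more libraries were found at 57 members (22.9%) against 34.5% of all promoters, and peaks in 12 or more at 17 (6.83%) against 12.8%. ZNF562 alone among the members had a peak in all 16 libraries, as did 57 promoters in all.

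Per library, the share of members called was lowest at 0.402%, 1 promoter, in KO esiHDAC4 UNT replicate B. It was highest at 42.6%, 106 promoters, in replicate A of WT esiCT UNT. The mean over libraries was 22.3% for the members and 29.8% for all promoters. In each of the 16 libraries the members were called less often than all promoters, at 0.254 to 0.863 of the share of all promoters. The share followed the letters as well as the groups. In WT esiCT UNT replicates A and B, 106 and 94 members were called, in WT esiCT OXPT 83 and 17, in WT esiHDAC4 UNT 72 and 95, and in WT esiHDAC4 OXPT 58 and 50. In KO esiCT UNT the numbers were 45 and 11, in KO esiCT OXPT 80 and 20, in KO esiHDAC4 UNT 84 and 1, and in KO esiHDAC4 OXPT 57 and 14. Replicate B was thus the lower letter in each KO group, and libraries of the same group differed by 13.7 percentage points (SD within groups).

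**Figure D1:**
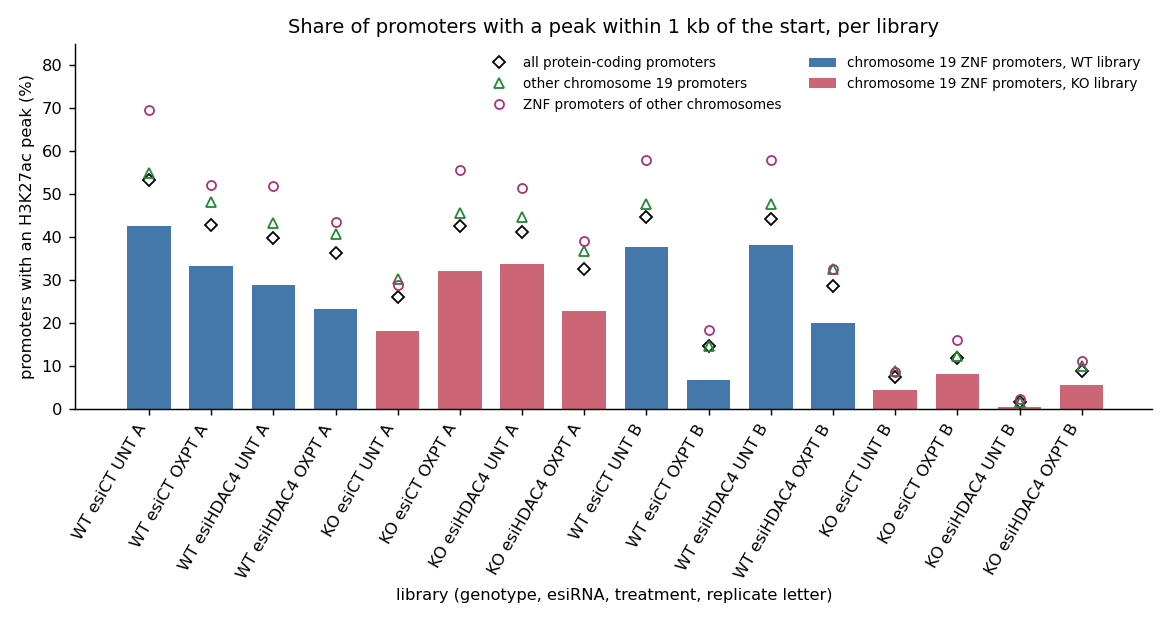
Percentage of promoters with an H3K27ac peak within 1 kb of the start (y axis) in each of the 16 libraries (x axis), for the 249 members and the comparison sets named in the key. The members lie under all promoters in every library, from 0.402% to 42.6%.

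The promoter windows of the members were rich in CG dinucleotides whether or not they were called. The median was 20 CG in a window for the members and 22 for all 15343 promoters with a window. Among uncalled promoters the medians were 17 for members and 8 for all, and 88.3% of the 103 uncalled members with a window held 10 or more CG against 45.9% of all uncalled promoters. Uncalled ZNF promoters of other chromosomes stood nearer to the members, with a median of 18.5 and 74% at 10 or more. At a like number of CG the members were still called less often. With 20 to 29 CG, 40.4% of 89 members had no peak in any library against 20.7% of 4009 promoters, and with 30 or more, 34.5% of 29 against 17.8% of 4688.

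Short sequence motifs were counted in the same windows on both strands. The ETS core CCGGAAG stood in 45.4% of member windows and 14.4% of all, and CCAAT, the box read by NF-Y, in 54.1% and 36.6%. The GC box GGGCGG stood in 67.9% and 59.2%, TATAAA in 1.83% and 9.63%, GCATGCGC (NRF1) in 4.13% and 4.25%, AAGATGGC (YY1) in 6.42% and 3.97%, and TGACGTCA (CRE) in 3.21% and 2.64%. ZNF promoters of other chromosomes held the ETS core in 34.1% and CCAAT in 43.3% of windows, between the members and all promoters. The ETS core did not separate called from uncalled members, at 46.6% of those never called and 40.4% of those called in 8 or more libraries. The motifs followed the gene clusters, whose members share ancestry. CCAAT stood in 29 of 29 windows of the cluster at 19.7 to 24.1 Mb and in 23 of 25 of that at 11.5 to 12.6 Mb, while the ETS core stood in 21 of 29 and 2 of 25. Of 7 members with a CRE, 5 lay in the cluster at 7.1 to 9.8 Mb, with peaks in 16 libraries (ZNF562), 14 (ZNF121 and ZNF561), 6 (ZNF266) and 0 (ZNF426). The 2 others were ZNF543 with 7 libraries and ZNF547 with 4. A match describes the letters of the window and no bound factor.

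Repeated sequence was counted in the member windows because clustered ZNF genes are copies of each other. Words of 50 bases that recur on chromosome 19 were found in 14 of 218 windows and filled 50% or more of 1.

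Members were grouped into clusters wherever neighbouring starts lay within 1 Mb and at least 5 members followed each other, which gave 9 clusters and 11 scattered members. The cluster at 7.1 to 9.8 Mb, with 16 members, was called most often, in 44.5% of its promoter and library combinations, and 8 of its members had peaks in 8 or more libraries. The cluster at 19.7 to 24.1 Mb, with 37 members, was called least often, in 8.45%, and 28 of its members had no peak in any library. Its 29 windows also held the fewest CG, with a median of 10. The cluster at 36.2 to 37.8 Mb, with 26 members, came next at 12.02%, with 18 never called, and its windows had a median of 22 CG. Low call rates therefore stood beside low CG in the former and not in the latter.

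The other clusters lay between. At 2.8 to 2.9 Mb 5 members reached 17.5%, at 51.6 to 53.5 Mb 40 members 20.9%, at 43.5 to 45.1 Mb 24 members 21.4%, at 55.5 to 58.5 Mb 59 members 24.7%, at 11.5 to 12.6 Mb 26 members 26.7% and at 34.7 to 35.0 Mb 5 members 32.5%. The 11 scattered members reached 41.5%. Without the cluster at 19.7 to 24.1 Mb the mean of the remaining 212 members was 24.7%, still under the 29.8% of all promoters. Genes of other kinds within the same clusters, 175 in all, were called in 21.9%, against 34.3% for the 1052 other genes of chromosome 19 outside them.

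Some neighbouring members shared runs of the same state. Runs were counted among members only, and their lengths were not compared with other genes or with an expected length. From ZNF43 to ZNF724, 12 consecutive members over 1.41 Mb had no peak in any library, and from ZNF506 to ZNF85 a further 10 over 1.10 Mb. In the cluster at 51.6 to 53.5 Mb, 12 consecutive members from ZNF808 to ZNF160 each had a peak in at least 1 library, over 0.576 Mb. They include ZNF816 and its read-through gene ZNF816-ZNF321P, which share their peaks. ZNF121, ZNF561 and ZNF562, 3 neighbours within 0.0906 Mb, were each called in 14 or more.

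**Figure D2:**
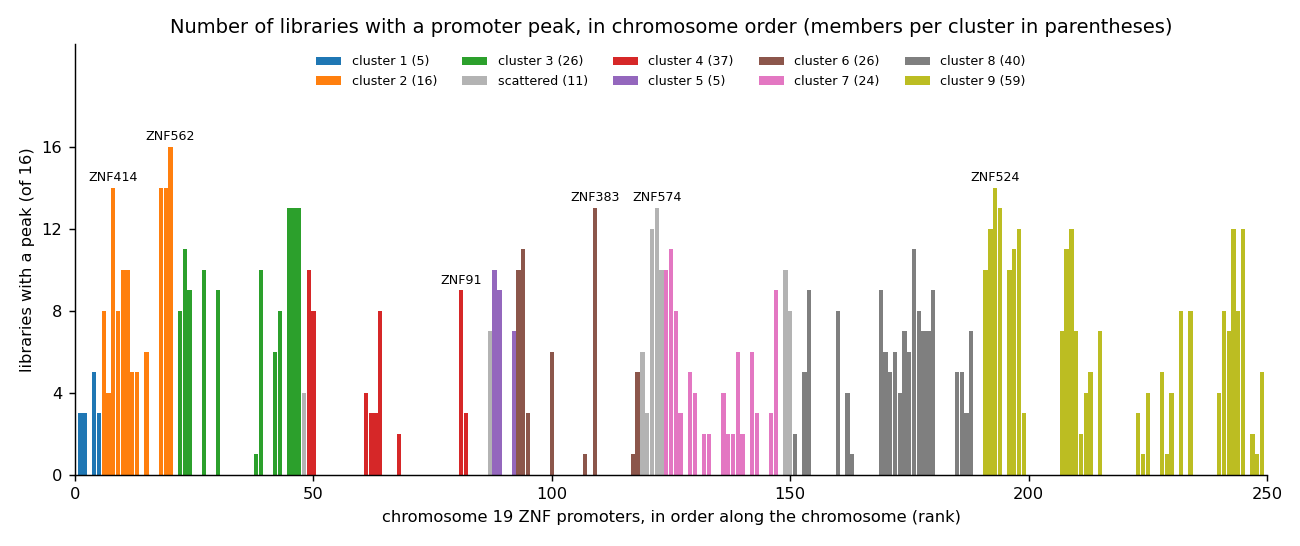
Number of the 16 libraries with a promoter peak (y axis) for each of the 249 members in order along chromosome 19 (x axis, rank), with clusters shaded and numbered. Long stretches at 0 fill the cluster at 19.7 to 24.1 Mb, where 28 of 37 members were never called.

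The summit fold is the pileup at the peak's summit divided by the local background, with a constant added to each. The strongest member of each cluster was taken by its mean summit fold. These were ZNF57 (4.63), ZNF121 (5.55), ZNF627 (4.99), ZNF91 (4.85), ZNF302 (4.78), ZNF383 (4.73), ZNF227 (5.45, called in 2 libraries), ZNF160 (5.66) and ZNF787 (5.89) in chromosome order, with ZNF574 (5.40) among the scattered members. ZNF787 had the highest mean of these, 5.89 ± 1.52 (SD, 12 libraries), with the lowest fold, 4.38, in KO esiHDAC4 OXPT replicate B and the highest, 9.61, in replicate A of WT esiCT UNT. Over the 129 members with any peak the median of the mean folds was 4.29, and over all such promoters 4.37. Median widths were 502.5 bp and 575.5 bp. Both sets hold called peaks only, so these medians cannot compare heights where no peak was called. They also average each promoter over different libraries. Within libraries, the median fold of called members stood at a median percentile of 45.8 among called promoters, from 3.63 to 64.6. The lowest value came from KO esiHDAC4 UNT replicate B, with its 1 called member.

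ZNF562, a zinc finger gene of the cluster at 7.1 to 9.8 Mb with its start at position 9675100 on the minus strand, gave a value in every library. In replicate A its summit fold was 4.27 in WT esiCT UNT, 3.78 in WT esiCT OXPT, 4.83 in WT esiHDAC4 UNT, 5.22 in WT esiHDAC4 OXPT, 4.27 in KO esiCT UNT, 4.205 in KO esiCT OXPT, 4.56 in KO esiHDAC4 UNT and 4.72 in KO esiHDAC4 OXPT. In replicate B, in the same order, it was 5.90, 4.46, 5.42, 4.48, 5.74, 4.79, 3.76 and 4.38. The groups overlapped under each factor. Behind these folds stood 8 to 33 reads at the summit, and the peak was 284 to 1740 bp wide.

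**Figure D3:**
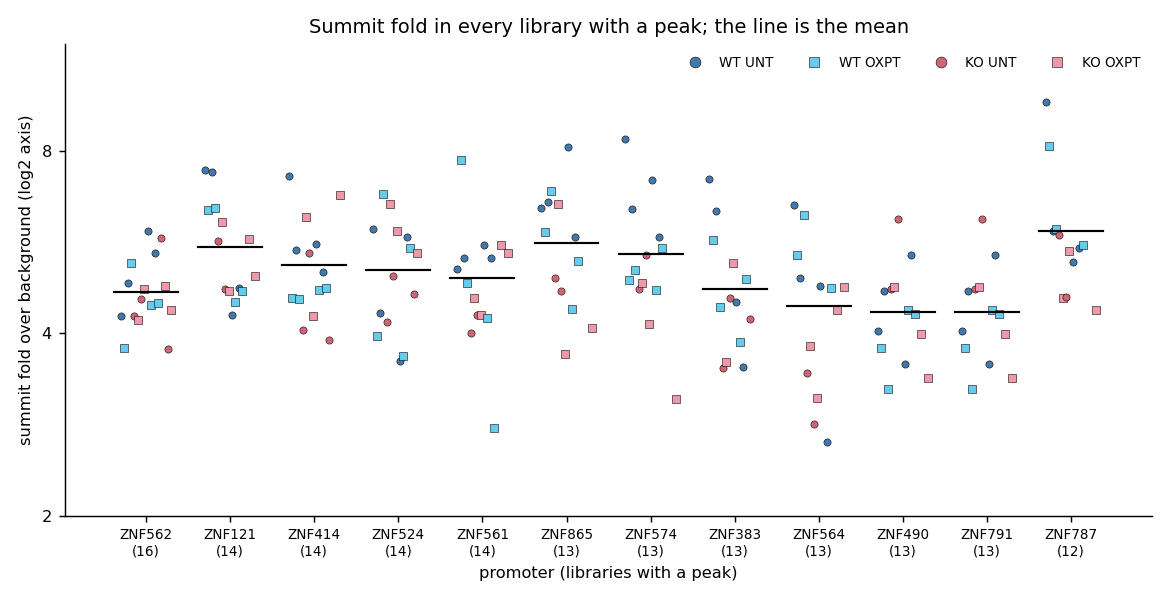
Summit fold over local background (y axis, log2 scale) of the members called in the most libraries (x axis), with a point for each library that had a peak and a line at the mean. WT points are blue and KO points red, and those of ZNF562 run from 3.76 to 5.90.

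The first comparison asked whether the loss of FBXW7 went with fewer acetylated ZNF promoters. KO libraries called 15.7% ± 12.95 of members (SD, n = 8) and WT libraries 28.9% ± 11.8, a difference of -13.2 points. The same difference over all promoters was -16.5 points, and the background index was 1.77 reads in KO and 2.30 in WT. Within replicate A the members differed by -5.32 points, at 2.201 and 1.97 reads, and within replicate B by -21.1 points, at 1.33 and 2.62 reads. In the 8 pairs of KO and WT libraries that shared letter, esiRNA and treatment, KO was lower in 6 and higher in 2, from -37.8 to 4.82 points. When each list was cut to its 1766 strongest peaks, the length of the shortest, the mean share was 1.33% and the difference -0.0502 points, a share too low to show a difference of the size above. Depth moved with genotype in replicate B, and its part in the difference was not tested.

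Counted by gene, 107 members had a peak in fewer KO than WT libraries, 11 in more and 11 in as many. Of the 129 members with any peak that is 82.9% in fewer and 8.53% in more, against 85.7% and 6.23% of the 12019 promoters with any peak. Peaks in WT libraries and in no KO library were found at 17 members (13.2% against 14.01% of those promoters), and the opposite at 3 (2.33% against 2.78%). All 8 WT libraries were called at 12 members (9.30% against 15.8%), and all 8 KO libraries at 1 (0.775% against 0.666%). Presence was tested promoter by promoter with an exact two-sided test conditional on the number of calls within each letter, over the 9587 promoters called in 3 to 13 libraries, of which 108 are members. Among these 108, KO was the lower side in 92 (85.2%), against 90.0% of all promoters tested, and the median difference was -25 points against -37.5. No promoter passed a Benjamini-Hochberg adjusted p of 0.05, and the smallest adjusted value was 0.246. At an unadjusted exact p under 0.05, 10 of 108 members were lower in KO (9.26%) against 14.1% of all promoters tested, and 0 members were higher, against 0.0104%. The count moved with single libraries, and without WT esiCT OXPT replicate B it was 24 of 107 members (22.4%) against 29.6% of all promoters tested.

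ZNF266, ZNF14 and ZNF526 had the smallest p. ZNF266 was called in 6 of 8 WT libraries and 0 of 8 KO libraries, with an exact p of 0.0102 (adjusted 0.246). Its folds in WT were 4.50 in esiCT UNT A, 2.94 in esiCT OXPT A, 3.40 in esiHDAC4 UNT A, 4.71 in esiCT OXPT B, 3.92 in esiHDAC4 UNT B and 3.32 in esiHDAC4 OXPT B. Its peaks were low, with 11 to 18 reads at the summit. ZNF14 was called in 7 WT libraries, all but esiCT OXPT B, and in KO esiCT OXPT A alone (exact p = 0.0102). Its fold there was 3.19, and in WT it ran from 2.77 to 4.68.

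ZNF526 was called in all 8 WT libraries and in 2 KO libraries (exact p = 0.0102). In WT replicate A its fold was 5.13, 6.06, 4.15 and 4.50 for esiCT UNT, esiCT OXPT, esiHDAC4 UNT and esiHDAC4 OXPT, and in WT replicate B 6.43, 5.76, 5.75 and 5.26. The KO peaks, in esiCT OXPT replicates A and B, had folds of 2.95 and 3.14, both under every WT value. KO esiHDAC4 UNT and KO esiHDAC4 OXPT of replicate A also had a peak near it, between 1 and 2 kb from the start, and with a window of 2 kb the difference was -50 points (adjusted p = 0.347 by the exact test) in place of -75. ZNF584 was called in all 8 WT libraries and in the 4 KO libraries of replicate A (exact p = 0.0286), so that its difference lay in replicate B, where KO libraries were shallow. ZNF296 and ZNF808, the latter known to bind retroelements, were each called in 2 KO and 7 WT libraries (exact p = 0.0306). All 6 genes had an adjusted p of 0.246.

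In the other direction ZNF551 had peaks in 3 KO and 1 WT libraries (exact p = 0.571), ZNF700 in 5 and 4, ZNF792 and ZNF28 in 4 and 3, ZNF573 in 3 and 2, and ZNF555 in 2 and 1 (exact p = 1 for each of these 5). None of these differences was larger than the spread between libraries.

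**Figure D4:**
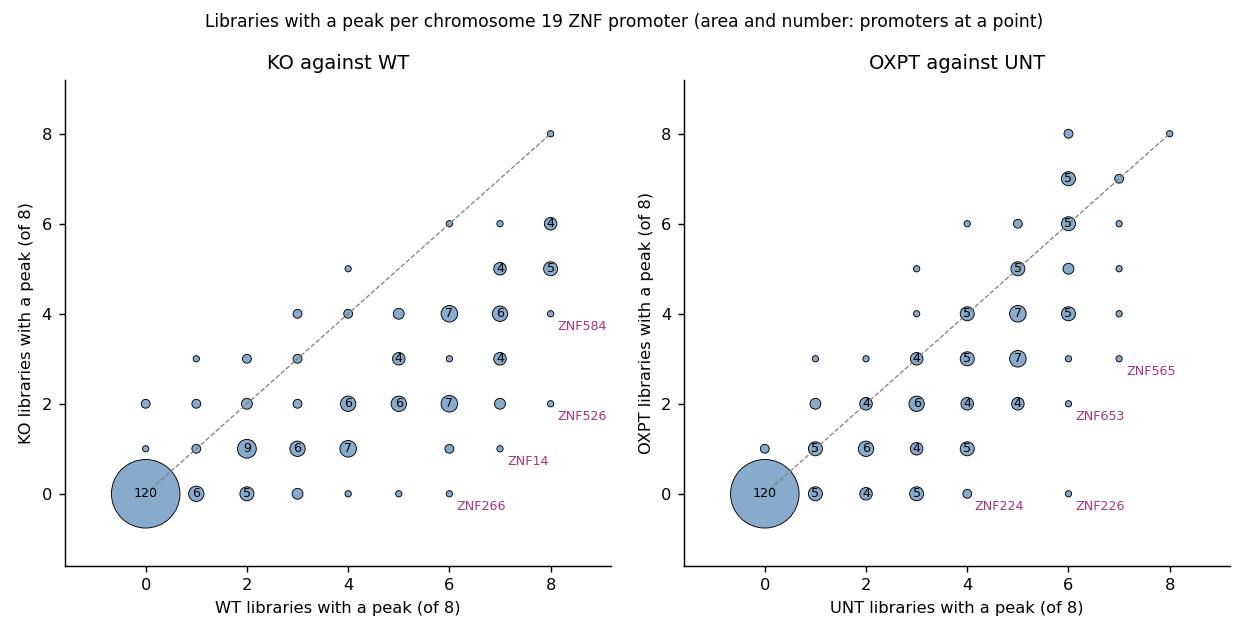
For each comparison, the number of libraries with a peak (of 8) in the first group (y axis) against the second (x axis), where the area and the number at a point give the members there. More members lie on the WT side than on the KO side, 107 against 11, and on the UNT side than on the OXPT side, 79 against 19.

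The second comparison asked how oxaliplatin changed the promoters. OXPT libraries called 19.03% ± 11.1 of members (SD, n = 8) and UNT libraries 25.5% ± 16.1, a difference of -6.48 points, against -5.03 over all promoters. The background index was 2.09 and 1.97 reads. Within replicate A the members differed by -2.91 points and within replicate B by -10.0. In the WT pairs OXPT was lower in 4 of 4, by -9.24 points (esiCT A), -5.62 (esiHDAC4 A), -30.9 (esiCT B) and -18.1 (esiHDAC4 B). In the KO pairs it was higher in 3 of 4, by 14.1 (esiCT A), 3.61 (esiCT B) and 5.22 (esiHDAC4 B), and lower by -10.8 in esiHDAC4 A. All promoters moved the same way in each of these 8 pairs. The last of the higher pairs rests on KO esiHDAC4 UNT replicate B, with its 1 called member.

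By gene, 79 members had peaks in fewer OXPT than UNT libraries, 19 in more and 31 in as many, and 17 had peaks in UNT libraries alone. Of those with any peak that is 61.2% in fewer, 14.7% in more and 13.2% in UNT alone, against 55.3%, 21.8% and 9.48% of all promoters with any peak. Among the 108 tested, OXPT was the lower side in 70 (64.8%), against 58.9% of all promoters tested, with the same median of -12.5 points. No promoter passed the adjusted threshold and the smallest adjusted p was 1. At an unadjusted exact p under 0.05, 1 member was lower in OXPT against 0.553% of all promoters tested, and 0 were higher against 0.0626%. Without KO esiHDAC4 UNT replicate B, 5 of 102 members passed in either direction (4.902%), against 4.15% of all promoters tested.

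That member was ZNF226, called in 0 OXPT and 6 UNT libraries (exact p = 0.0102, adjusted 1). Its folds were 4.03 in WT esiCT UNT A, 4.71 in KO esiCT UNT A, 4.99 in KO esiHDAC4 UNT A, 3.05 in WT esiCT UNT B, 4.28 in WT esiHDAC4 UNT B and 3.54 in KO esiCT UNT B. The UNT libraries without a peak were WT esiHDAC4 A and KO esiHDAC4 B, so that peaks came from both genotypes. ZNF224, a KRAB repressor known for aldolase A, had 0 OXPT and 4 UNT libraries (exact p = 0.0714), ZNF221 also 0 and 4 (exact p = 0.0918), ZNF565 3 and 7 (exact p = 0.0714), ZNF653 2 and 6 (exact p = 0.0918) and ZNF573 1 and 4 (exact p = 0.143). On the other side ZNF547 had 3 and 1 (exact p = 0.486), ZNF708 5 and 3 (exact p = 0.5), ZNF526 6 and 4 (exact p = 0.622), and ZNF83, ZNF554 and ZNF564 differed by 1 library (exact p = 1). The adjusted p was 1 for all 12 genes.

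ZNF226, ZNF224 and ZNF221 lie in the cluster at 43.5 to 45.1 Mb, which was singled out after these values were seen and carries no test. Its 24 members were called in 13.02% of OXPT and 29.7% of UNT combinations, against 27.3% and 32.3% for all promoters. The calls of the cluster numbered 25 and 57, a ratio of 0.439 against 0.746 over all members (379 and 508 calls). The ratio was 0.341 within WT and 0.688 within KO, where all members together stood at 0.567 and 1.21. The cluster had fewer OXPT calls in 6 of 8 pairs and more in 1. By gene, 7 of the 24 had no peak in any library. Among the members of the cluster with any peak, 15 had fewer OXPT than UNT libraries and 0 had more. Of all promoters with any peak, 55.3% had fewer OXPT libraries, 21.8% had more and 9.48% had peaks in UNT alone. ZNF221, ZNF230, ZNF224, ZNF234, ZNF226 and ZNF227 had peaks in UNT libraries alone. The cluster at 36.2 to 37.8 Mb stood at a ratio of 0.515 (17 and 33 calls), with fewer OXPT calls in 7 of 8 pairs and more in 0. The cluster at 2.8 to 2.9 Mb gave 0.4 from 4 and 10 calls. The other clusters lay nearer to 1, from 0.718 at 51.6 to 53.5 Mb to 0.9 at 7.1 to 9.8 Mb. KO to WT ratios ran from 0.431 for the scattered members to 0.857 at 34.7 to 35.0 Mb, and no cluster reached 1. All promoters also stood lower in KO, at a mean share of 21.5% against 38.1% in WT.

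**Figure D5:**
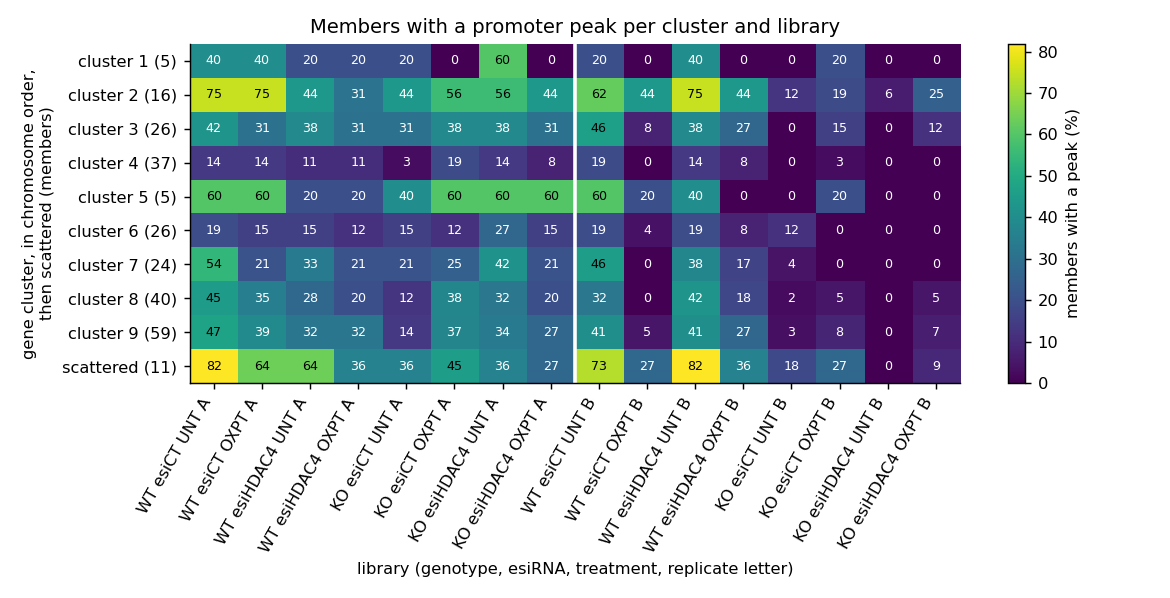
Percentage of each cluster's members with a promoter peak (colour) in each library (columns), with clusters in chromosome order and the scattered members last (rows). The row at 19.7 to 24.1 Mb stays at or under 18.9% in every library, while that at 7.1 to 9.8 Mb reaches 75%.

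The third comparison asked what silencing HDAC4 did. HDAC4 binds other proteins that remove histone acetylation, and silencing it is used to relieve repression. The esiHDAC4 libraries called 21.6% ± 13.02 of members (SD, n = 8) and the esiCT libraries 22.9% ± 15.3, a difference of -1.26 points against -1.31 over all promoters. It was -4.32 within replicate A and 1.81 within replicate B. Of the 8 pairs, 5 were lower and 3 higher, from -13.7 to 15.7 points. By gene, 52 members had peaks in fewer esiHDAC4 libraries (40.3% of those with any peak, against 40.5% of all promoters with any), 40 in more (31.0% against 31.7%) and 37 in as many. No promoter passed the adjusted threshold (smallest adjusted p = 1 by the exact test), and at an unadjusted p under 0.05 0 members were lower against 0.125% of all promoters tested, and 0 were higher against 0%. ZNF558, a KRAB zinc finger gene, had the smallest p, with 2 esiHDAC4 and 6 esiCT libraries (exact p = 0.133). ZNF180 followed with 0 and 3 and ZNF792 with 2 and 5 (exact p = 0.214 each), then ZNF559 and its read-through gene ZNF559-ZNF177, which share a promoter, with 1 and 4, and ZNF181 with 3 and 6 (exact p = 0.296 each). With more esiHDAC4 libraries stood ZNF649 at 4 and 1 and ZNF320 at 7 and 4 (exact p = 0.257 each), ZNF296 at 6 and 3 (exact p = 0.296), and ZNF787 at 7 and 5, ZNF497 at 7 and 5 and ZNF547 at 3 and 1 (exact p = 0.486 each). All had an adjusted p of 1.

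Summit folds and widths could be tested without missing values at 57 promoters, and ZNF562 was the member among them. After centring each library on its median, its log2 fold differed by 0.035 ± 0.12 (SE, 95% interval -0.22 to 0.29) between KO and WT (limma, adjusted p = 0.917), by 0.079 between OXPT and UNT (adjusted p = 0.964) and by 0.10 between esiHDAC4 and esiCT (adjusted p = 0.986). In esiCT cells OXPT differed from UNT by 0.19 in WT and -0.23 in KO, and the difference of the differences was -0.43 ± 0.35 (SE, limma adjusted p = 0.665). In OXPT cells esiHDAC4 differed from esiCT by 0.21 in KO (limma adjusted p = 0.994) and 0.19 in WT (adjusted p = 0.920). Its log2 width differed by 0.18 ± 0.31 between KO and WT (limma adjusted p = 0.722). None of the 57 promoters passed for the fold in any of these comparisons (0% of those tested, with 9, or 15.8%, at an unadjusted p under 0.05 for KO against WT), and 1 passed for the width between KO and WT (1.75%), which was no member.

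With peaks required in 12 or more libraries, 2572 promoters and 17 members could be tested. Between KO and WT 17 promoters passed for the fold (0.661%), 11 higher and 6 lower, and 0 were members. The members with the smallest p were ZNF787, at -0.42 ± 0.16 (SE, limma adjusted p = 0.216), and ZNF564, at -0.42 ± 0.16 (adjusted p = 0.226). Before centring, the median fold over all promoters in replicate A was 5.28, 4.41, 4.65 and 4.24 in WT for esiCT UNT, esiCT OXPT, esiHDAC4 UNT and esiHDAC4 OXPT. In KO it was 4.51, 4.50, 4.35 and 3.95. In the same libraries and order, the uncentred fold of ZNF787 was 9.61, 8.15, 5.89 and 5.94 in WT. In KO it was 5.80, 4.57, 4.58 and 5.47, so that every uncentred WT value exceeded every KO value. The uncentred fold of ZNF564 was 6.51, 5.39, 4.94 and 6.26 in WT and 3.44, 3.81, 2.83 and 3.13 in KO, also without overlap. In replicate B its WT values were 4.78, 2.64 and 4.76 with WT esiCT OXPT uncalled, and its KO values were 4.36 in esiCT OXPT and 4.77 in esiHDAC4 OXPT, which overlap.

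A fit on replicate A alone used genotype, treatment and esiRNA as additive terms without interaction, since the combinations had no replicate there. Its error was the variation left between different conditions. Chosen after these data were seen because the KO libraries of replicate B were shallow, the fit covered 3029 promoters and 20 members. It called 141 promoters between KO and WT (4.66%), 74 higher and 67 lower. ZNF564 was the member called, lower in KO by -0.68 ± 0.17 on the log2 scale (SE, 95% interval -1.02 to -0.34, limma adjusted p = 0.0155). The start of ZNF564 lies within 1 kb of that of another gene, ENSG00000196826, so that the peak cannot be given to either. Of the 20 members, 7 lay above 0 and 13 below, with a median of -0.14 against 0.01 over all promoters tested.

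Genes known for particular roles were looked up by name. The 8 ZNF genes known as methylated in carcinomas, ZNF132, ZNF154, ZNF331, ZNF382, ZNF471, ZNF582, ZNF671 and ZNF677, had no peak in any library. Methylation was not measured here, and 48.2% of all members had no peak. The window of ZNF154 printed above holds 14 CG, and none of the 7 motifs was found in it. Of 5 genes known to bind retroelements, ZNF91 and ZNF808 were called in 9 libraries and ZNF417 and ZNF587, close relatives that bind the same endogenous retroviruses, in 8, while ZNF93 had no peak. The folds of ZNF91 ran from 3.46 to 7.78 and its 9 libraries included 4 KO and 5 WT. ZNF274, which binds ZNF genes themselves, was called in 4 libraries, 1 KO and 3 WT, with folds of 3.39 to 3.73.

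The genes whose products act with KRAB zinc finger proteins are not members, and were chosen by hand and not tested as a list. Of 19, 15 had peaks in 8 or more libraries, where 34.5% of all promoters did, among them TRIM28, the co-repressor itself, in 12, SETDB1 in 10 and CBX5, which encodes a heterochromatin protein 1, in 15, while ATRX had 1. At an unadjusted exact p under 0.05, EHMT1, PPHLN1, CHAF1A and DNMT1 were lower in KO, 4 of the 17 tested against 14.1% of all promoters, and none passed after adjustment. The part of depth in these counts was not tested.

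Peaks at member promoters lay downstream of the start. The median summit lay 307 bp into the gene, and 79.8% of the 129 called members had a median summit downstream, against 281.5 bp and 68.6% for all promoters. The start itself was covered by 17.02% of 887 member peaks and 17.6% of all promoter peaks. Members with another protein-coding start within 1 kb, 36 in all, were called in 33.3% of combinations and the other 213 in 20.4%, and for all promoters the shares were 49.4% and 26.6%. ZNF490 and ZNF791, whose starts lie back to back, share each of their peaks, so the pair counts a peak 2 times. Within the limit of 1 kb, peaks with their nearest edge 500 to 1000 bp away gave 92 of the calls at 52 members, led by ZNF414 and ZNF565 with 6 libraries and ZNF576 with 4. Just outside, beyond 1 kb and up to 2 kb, 10 members had 11 peaks, with 2 at ZNF526, the KO peaks named above.

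Canonical starts missed few members. Of the 120 without a peak there, 3 had a peak at another annotated start, ZNF587B in 11 libraries, ZNF875 in 4 and ZNF254 in 1, and 112 had no peak anywhere in the gene. The super-enhancer lists held 396 regions on chromosome 19, summed over the 16 libraries, so that a region shared by libraries counts again in each. None overlapped a member, while 107 of the 1227 other genes of the chromosome were overlapped in at least 1 library and 12 in at least 8. The nearest approach was 12589 bp, to ZNF526 in WT esiHDAC4 OXPT replicate A.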

How the data were processed

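The 16 H3K27ac libraries were analysed from the authors' lists. According to the submitters' processing notes, reads were trimmed with Trimmomatic 0.39, aligned to hg38 with Bowtie2 2.4.4, handled with SAMtools 1.18 and called with MACS2 2.2.7.1. The authors deposited a peak list and a super-enhancer list for each library. In the deposited peak lists the fold is the ratio of summit pileup to local background, the p-value and q-value are −log10 values, and the score is an integer made from the q-value. The deposited super-enhancer lists give positions. The study's methods kept super-enhancers that also carried H3K4me1, and do not say whether the lists as deposited are those. The 4 inputs were not analysed here. Read totals are not in the lists, so no share carries a counting interval. Depth was recovered by solving fold and p for whole summit reads (tolerance 0.01 on −log10 p), with a pileup scale of 0.968 for WT esiCT UNT replicate B. A low percentile of the backgrounds solved for a list, and not their minimum, served as its index.

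Starts came from GENCODE version 44. The strongest peak within 1 kb gave the fold and width. Presence was tested for promoters called in 3 to 13 libraries with an exact two-sided test conditional on the number of calls within each letter. Log2 fold and width, centred on each library's median, were tested with limma 3.58.1 (R 4.3.3) with group and letter as terms, since the study's own model used replicate and condition. The fit on replicate A alone had additive terms for genotype, treatment and esiRNA instead. P-values were adjusted over all promoters tested with the Benjamini-Hochberg method and a threshold of 0.05. Python 3.11.15, pandas 2.3.3, numpy 2.4.6, scipy 1.17.1, Biopython 1.88 and matplotlib 3.10.9 were used. On simulated data the presence test for KO against WT found 100% of 200 changed promoters of 8720 at an unadjusted p under 0.05 and 71% after adjustment, and limma found 100% of 200 of 2572 for the fold. How often either test finds differences of the size measured in these libraries was not tested.

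The members, the gene lists and the tests were chosen with earlier results of these data known. Genes were named if they led their cluster by mean fold, had among the 6 smallest p of presence in either direction of a comparison, lay at the 1 kb limit, or stood on the lists of retroelement-binding, carcinoma-methylated and KRAB partner genes. The marker list was chosen later. The windows of ZNF154, ZNF91 and ZNF93 were printed in addition to those the rule gave. Alternatives were the window, the peak threshold, lists cut to equal length, peaks counted by summit or by the nearest peak, filters on libraries, centring, the letter and leaving out each library.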

Additional observations from a re-analysis of the deposited data

Results flagged for a closer look

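Groups of 8 libraries were searched for a library far from its nearest neighbour relative to the group's range. Chance meets this criterion in about 1 group of 20. Several measures were searched and the groups overlap, so that chance meets it more often over the whole search and 1 library can recur. KO esiHDAC4 UNT replicate B lay below the 7 others among the KO, the esiHDAC4 and the UNT libraries, since members were called at 0.254 of the share of all promoters, with 1 member called. Among the OXPT libraries WT esiCT OXPT replicate B lay lowest, at 0.469 with 17 members called, while replicate A of that group stood at 0.777 with 83. Among the esiCT libraries WT esiCT UNT replicate A had the highest median fold of called members, 5.14, and its median over all promoters was 5.28.

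OXPT moved the members in opposite directions in the genotypes under esiCT. The difference of OXPT from UNT was -9.24 and -30.9 points in the WT pairs and 14.1 and 3.61 points in the KO pairs, which puts WT below KO by -28.9 points on average. All promoters moved alike, by -10.4 and -30.3 points in WT and 16.5 and 4.33 in KO. Relative to all promoters, the log2 ratio of members called in OXPT to UNT was -0.04 and -0.84 in WT and 0.12 and 0.21 in KO, a difference of -0.61. These differences were not tested, because 2 pairs a genotype cannot reach p = 0.05 in an exact test.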

How the results depend on the processing

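Calls per promoter turned on how strong a peak had to be. With a −log10 q of at least 10 the mean share of members called was 1.53%, and with lists cut to the shortest 1.33%, where the highest cluster reached 4.69% and the lowest 0%. Members that differed between KO and WT at an unadjusted p under 0.05 numbered 0 under either, 1 in letter A and 2 in letter B. All promoters at that p numbered 33 with the stricter q, 48 with cut lists, 111 in letter A and 807 in letter B. For OXPT 2 members passed with a window of 500 bp and 0 with the stricter peaks, cut lists or either letter. All promoters numbered 16 with the stricter peaks, 23 with cut lists, 16 in letter A and 3 in letter B. No promoter passed the adjusted threshold of presence in any of these settings. Leaving out single libraries gave 10 to 24 members for KO against WT, where all promoters at that p numbered 1373 to 2761 (1351 with all libraries), with 24 and 2761 without WT esiCT OXPT replicate B, 18 without KO esiCT OXPT A, 17 without KO esiHDAC4 UNT A or KO esiHDAC4 OXPT A and 16 without WT esiHDAC4 OXPT B. It gave 1 to 5 for OXPT, where all promoters numbered 66 to 370 (59 with all libraries), with 5 and 370 without KO esiHDAC4 UNT B, 4 and 318 without KO esiCT UNT B, 3 without WT or KO esiCT OXPT A, and 2 without WT esiHDAC4 UNT B or any library of replicate A not yet named but WT esiHDAC4 UNT. It gave 0 to 1 for esiHDAC4, where all promoters numbered 22 to 73 (12 with all libraries). The causes were not tested.

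Counts of promoters past limma's adjusted threshold were small in most settings. For the fold between KO and WT they were 2 without centring, 17 with peaks in 12 or more libraries, 2 with the nearest peak and 141 in replicate A. Without centring the count was 11 for OXPT in WT esiCT and 13 for its difference between genotypes, and with peaks in 12 or more libraries it was 2 for esiHDAC4 in KO OXPT. Without centring the median of all promoters moved by -0.55 for OXPT in WT esiCT. For the width between KO and WT the counts were 2 without centring, 0 with 12 or more libraries, 3 with 500 bp, 0 with the nearest peak and 2 in replicate A. With the nearest peak they were 1 for OXPT, 1 for esiHDAC4, 1 for OXPT in WT esiCT, 1 for OXPT in KO esiCT and 2 for the difference between genotypes, which was 1 without centring. Leaving out single libraries gave 0 to 2 for the fold and 0 to 5 for the width between KO and WT, and 0 to 1 for the width of esiHDAC4, OXPT in WT esiCT, esiHDAC4 in KO OXPT and the difference between genotypes.

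For ZNF562 no difference passed and several changed sign. The fold of KO against WT was -0.072 without centring, -0.0012 with 12 or more libraries and -0.060 with the nearest peak, and that of OXPT -0.094 without centring. The width was -0.58 (KO) and -0.26 (OXPT) without centring, -0.086 with the nearest peak (KO), and for esiHDAC4 0.10 with 500 bp, 0.12 with the nearest peak and 0.59 in replicate A. Leaving out single libraries gave folds of -0.033 to 0.11 (KO), and widths of -0.0062 to 0.36 (KO), -0.18 to 0.18 (OXPT) and -0.19 to 0.17 (esiHDAC4).

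Without the replicate block no promoter passed for presence, 9 members were lower in KO at an unadjusted p and 1 in OXPT, and the counts past limma's threshold were 0 for the fold and 1 for the width between KO and WT, so that no call changed. Over 28 pairs of groups the correlation of differences between A and B had a median of 0.0501 for presence, with 11 above 0.1, and 0.19 for the fold, with 17 above 0.1. Shallow lists limit what a missing peak can say, above all in replicate B of KO.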

Other observations

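Zinc finger repeats were counted in the reference transcripts of the 249 genes, by the spacing of the cysteines and histidines of a C2H2 finger. Whole transcripts were translated in each forward frame, and the frame with the most matches was used. The annotated coding frame was not used. The median was 13 fingers, from 1 to 40, and it was 13 in members never called and 12 in those called in 8 or more libraries. A strict pattern of the KRAB A box, accepted in any forward frame, was found in 171 members (68.7%). It missed some known KRAB genes, such as ZNF224, so the groups are not pure. Members with the pattern had no peak in any library in 53.2% and peaks in 8 or more in 18.7%, and the 78 without it in 37.2% and 32.1%. ZNF91, with 33 fingers, was called in 9 libraries, and the most fingers, 40, stood in a member never called. No difference in fingers was tested.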
